A study of Mus musculus with 6 samples.

Results

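The genes examined here encode the sarcomeric myosin heavy chains Myh1, Myh2, Myh3, Myh4, Myh6, Myh7, Myh7b and Myh8 and the thick filament binding proteins Mybpc1 and Mybpc2. They were chosen by name: every probe set whose platform annotation gave exactly 1 gene symbol, that symbol being one of these, was taken. This gave 314 probe sets of 10 genes, out of 212097 single-symbol probe sets of 20416 genes on the array. The 6 arrays hold RNA from C2C12, a line of mouse myoblasts that form multinucleate myotubes once serum is lowered. The 3 insulin cultures were myotubes kept in 100 nM insulin for 48 h, which per the labels was meant to bring about insulin resistance. The 3 control cultures were untreated myotubes. All 6 cultures belong to this 1 cell line, had been grown in 10% fetal bovine serum, then moved to 2% horse serum, and were taken on days 4 to 7 of differentiation, with fresh medium every 24 h. The labels call the arrays of a group biological replicates without saying that the cultures were grown separately, so p-values measure the spread between these arrays.

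Muscle myosin is a hexamer of a pair of heavy chains and 2 pairs of light chains, and the heavy chain carries the ATPase head that pulls on actin. Mammals hold a family of heavy chain genes that differ in speed: embryonic (Myh3) and perinatal (Myh8) chains come first in development, the fast chains IIx (Myh1), IIa (Myh2) and IIb (Myh4) mark adult fast fibres, and Myh7 encodes the slow chain of type I fibres, which is also the beta chain of the heart. Myosin binding protein C holds thick filaments in register and tunes the heads, with Mybpc1 the slow and Mybpc2 the fast skeletal form. Cultured myotubes are known to use mostly the developmental chains, with adult chains appearing as they mature.

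Each gene was given the median log2 value of its probe sets on each array, and insulin minus control was fitted with limma across 14291 genes whose mean reached the 30th percentile of all genes. All 10 genes passed that filter. Myh7 was the gene that fell after insulin (Benjamini-Hochberg adjusted p under 0.05 over all genes), none rose, and 9 did not pass. Over all tested genes 15.9% were called, 6.35% falling and 9.56% rising, so 1 call in 10 genes is near the background. At an unadjusted p under 0.05 limma gave 6 of the 10 genes lower and 0 higher, against 13.2% lower and 16.7% higher of all tested genes. The median change of the 10 genes was -0.23 on the log2 scale and that of all tested genes -0.0028. In 4 of the 10 genes all 3 insulin arrays lay below all 3 control arrays, against 15.7% of all tested genes, and in 0 of the 10 did all insulin arrays lie above all controls, against 20.0%. The insulin mean was the lower one in 9 of the 10 genes and in 50.6% of all tested genes. Values of different genes come from different probes, so levels are compared between arrays and never between genes.

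**Figure D1:**
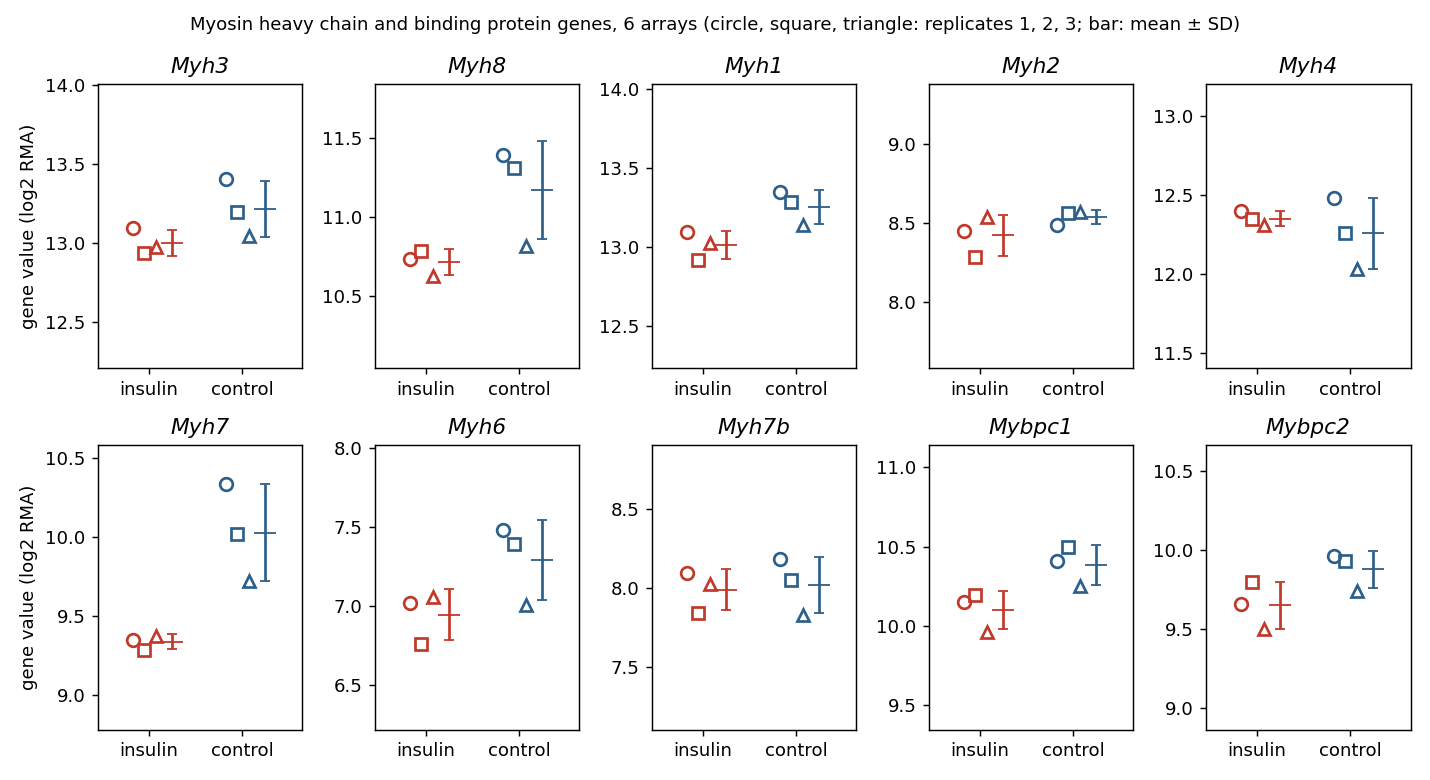
Log2 RMA value of each gene (vertical axis, own range per panel but the same span) on the 3 insulin arrays (red, left) and the 3 control arrays (blue, right), with circle, square and triangle for replicates 1, 2 and 3 and bars for the mean ± SD. The Myh7 insulin values lie between 9.28 and 9.37, below all 3 control values of 9.72 to 10.34, while the Myh4 groups overlap.

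Myh7, the slow and cardiac beta chain, had values of 9.35, 9.28 and 9.37 on insulin arrays 1, 2 and 3, against 10.34, 10.02 and 9.72 on control arrays 1, 2 and 3. The insulin arrays lay close together and below every control, while the controls were spread over 0.61 log2 units. The mean was 9.34 ± 0.05 after insulin and 10.03 ± 0.31 in controls (SD, n = 3 each), a change of -0.69 ± 0.14 (SE, limma adjusted p = 0.0144), or 1.61-fold lower. The call did not hold without insulin 1 (adjusted p = 0.0519), insulin 2 (0.0577) or insulin 3 (0.0531), where the change stayed between -0.66 and -0.71, and it held without each control.

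All 33 Myh7 probe sets had a lower mean after insulin, as did 50.9% of all tested probe sets. In 25 of the 31 that passed the level filter for probe sets (7.36) all insulin arrays lay below all controls, as in 12.2% of all tested probe sets. In a fit of all 169103 tested probe sets 16 of these 31 fell and 0 rose, where 4.87% of all tested probe sets were called, 1.44% falling and 3.43% rising; at an unadjusted p under 0.05 limma gave 73 of the 274 tested probe sets of the family lower (26.6%) and 4 higher (1.46%), against 8.96% lower and 12.8% higher of all tested probe sets. The changes ran from -1.15 to -0.12 with a median of -0.77 over all 33. The probe set with the largest fall had 9.47, 8.98 and 8.84 on the insulin arrays, against 10.45, 10.21 and 10.06 on the controls (limma adjusted p = 0.0260). The one that moved least had 8.70, 8.73 and 8.90 on the insulin arrays and 8.86, 9.01 and 8.81 on the controls, and these overlap. The 11 dimmest and the 11 brightest probe sets had like median changes, -0.81 and -0.78. In Myh1 these medians were -0.34 in the 9 dimmest and -0.15 in the 9 brightest. In Myh3 they were -0.21 and -0.10 (12 probe sets each), and in Myh4 0.19 and 0.04 (10 each). They were also smaller in size among the brightest in Myh7b and Myh8, and larger in Myh2, Myh6, Mybpc1 and Mybpc2. Probe sets of a gene share the RNA of the same 6 arrays and are not replicates. The number that fell among all 274 tested member probe sets was 18, and it was 0 without control 2 or insulin 2, 1 without insulin 3, 4 without insulin 1, 6 without control 1 and 30 without control 3. Over all tested probe sets 2431 fell, and 92 to 1562 did when single arrays were left out, the most without control 3.

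**Figure D2:**
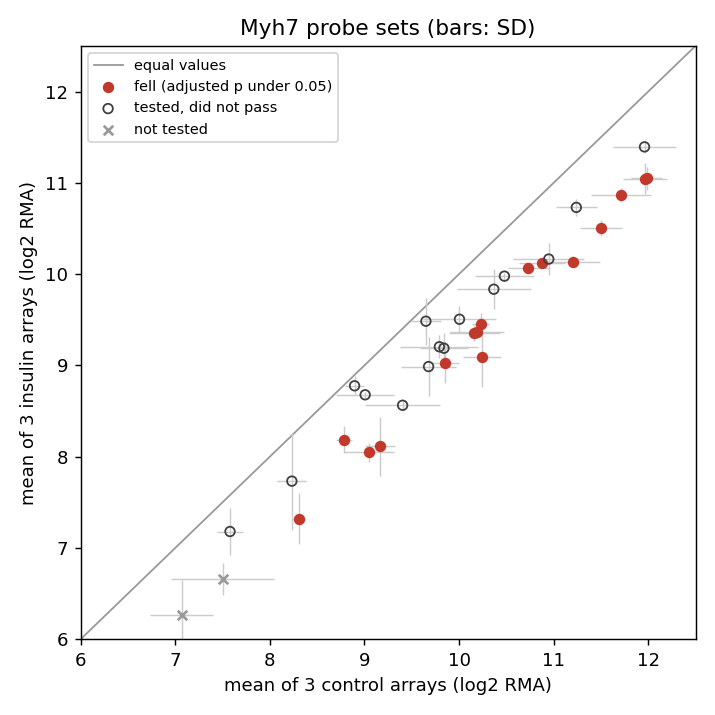
Mean of the 3 insulin arrays (vertical axis, log2 RMA) against the mean of the 3 control arrays (horizontal axis) for the 33 Myh7 probe sets, with SD bars; filled red points are the 16 that fell, open points did not pass and crosses were under the filter. All points lie under the line of equal values, at dim and bright levels.

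The promoter of Myh7 is shown because this gene carried the call. RefSeq (GRCm38.p6) lists 2 overlapping start sites for it. The window below runs from 250 bases before to 50 after the upstream one, with capitals for matches to the E-box CANNTG, the site class bound by MyoD-type factors, and to the MCAT element CATTCC, read on either strand, which TEAD factors bind.
Myh7 (chr14:54994577-54994876, minus strand): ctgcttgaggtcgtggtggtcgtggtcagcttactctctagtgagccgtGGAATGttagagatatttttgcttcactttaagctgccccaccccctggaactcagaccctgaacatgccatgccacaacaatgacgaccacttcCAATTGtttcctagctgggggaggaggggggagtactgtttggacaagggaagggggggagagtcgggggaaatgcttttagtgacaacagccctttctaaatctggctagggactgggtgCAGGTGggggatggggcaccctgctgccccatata
The search on both strands found 2 E-box matches and 1 MCAT match here, the MCAT one as its reverse complement. The window of the other Myh7 start site holds the same 2 E-box matches and no MCAT match. Among all 32851 RefSeq promoter windows of this length, 72.3% hold an E-box match and 14.7% an MCAT match. Of the 10 genes, 8 hold an E-box match and 5 an MCAT match (Myh1, Myh4, Myh6, Myh7 and Mybpc2). TATAAA was found in 6 of the 10 (13.6% of all windows). For MEF2 sites only 1 strict pattern was searched, with C as its first base and G as its last. It was found in 0 of the 10 (3.69% of all windows). Sites with other bases at these ends were not searched, so the 0 does not show that the windows lack MEF2 sites. These counts take the first listed window per gene. A match is a description of letters, not a binding site.

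The other cardiac-type chains gave no call. Myh6, the alpha chain of the heart and the neighbour of Myh7 on chromosome 14, had 7.02, 6.76 and 7.06 on the insulin arrays, against 7.48, 7.39 and 7.00 on the controls. Control 3 lay within the insulin range, and the change was -0.35 ± 0.13 (SE, limma adjusted p = 0.127). This gene sat at the edge of the level filter (7.05): 11 of its 26 probe sets passed the filter for probe sets. Its brightest one changed by 0.38, with 10.93, 11.23 and 10.70 after insulin and 10.61, 10.63 and 10.49 in controls. That one had a level of 10.765, against 7.08 for the gene's median probe set. A further 5 probe sets carry the symbols of both Myh6 and Myh7 and were left out. Their changes ran from -1.12 to -0.01. The one nearest 0 had 6.81, 6.62 and 6.59 after insulin, against 5.85, 7.19 and 7.01 in controls, and the one farthest from 0 had 8.39, 7.87 and 7.72 after insulin, against 9.31, 9.20 and 8.84 in controls. With these 5 added to both genes, a choice made after seeing the data, Myh6 passed (-0.37, adjusted p = 0.0499) and Myh7 changed by -0.66 (adjusted p = 0.00995). Myh6 also passed without control 3 (-0.49, adjusted p = 0.0204).

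Myh7b, an ancient slow-type chain, had 8.09, 7.84 and 8.03 on the insulin arrays, against 8.18, 8.05 and 7.83 on the controls. The groups overlapped, with a change of -0.03 ± 0.11 (SE, adjusted p = 0.875). Of its 41 probe sets 28 were lower and 13 higher, and 1 of the 27 tested fell: it had 7.56, 6.83 and 7.04 after insulin, against 8.18, 8.05 and 8.03 in controls. The median change of single probe sets was -0.16, so the change of the array medians and the median of the probe set changes differ for this gene.

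Among the developmental chains, Myh8, the perinatal chain, had 10.74, 10.78 and 10.63 on the insulin arrays, against 11.39, 11.31 and 10.82 on the controls. The groups did not overlap, though control 3 lay just above them. Its change of -0.46 ± 0.14 (SE) did not pass (limma adjusted p = 0.0664) and did without control 3 (-0.63, adjusted p = 0.00391). Of its 32 probe sets 31 were lower and 1 of them fell, with 10.60, 10.63 and 10.55 after insulin, against 11.22, 11.46 and 11.04 in controls. The mean of its brightest probe set differed by -0.03 between the groups, each with an SD of 0.05 (n = 3 each). That probe set had a level of 14.01, against 10.96 for the gene's median probe set. Whether such bright probe sets, here and in Myh2 and Myh6, also read other heavy chains was not tested.

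Myh3, the embryonic chain, had 13.10, 12.94 and 12.97 on the insulin arrays, against 13.40, 13.20 and 13.05 on the controls. Insulin 1 lay above control 3, and the change was -0.21 ± 0.10 (SE, adjusted p = 0.194). It was -0.12 without control 1 and -0.06 with the brightest probe set alone. All 36 of its probe sets were lower after insulin, by 0.03 to 1.87, and none passed limma's test. The one with the largest difference gave 12.43, 9.64 and 9.61 on the insulin arrays and 12.65, 12.02 and 12.61 on the controls, so insulin 1 sat among the controls.

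Among the adult fast chains, Myh1 (IIx) had 13.10, 12.92 and 13.03 on the insulin arrays, against 13.35, 13.28 and 13.14 on the controls. The groups did not overlap and all 29 probe sets were lower, yet the change of -0.24 ± 0.08 (SE) did not pass (adjusted p = 0.0839). It passed without control 3 (-0.30, adjusted p = 0.0426). Myh2 (IIa) had 8.45, 8.28 and 8.54 on the insulin arrays, against 8.49, 8.56 and 8.57 on the controls. Its change was -0.12 ± 0.08 (SE, adjusted p = 0.386), with 25 of 31 probe sets lower. That change was -0.05 without insulin 2, -0.23 over the brighter probe sets and -0.33 with the brightest alone, none of which passed. The brightest had a level of 13.30, against 8.42 for the gene's median probe set.

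Myh4 (IIb), the fastest chain, stood on the other side of 0. It had 12.39, 12.35 and 12.31 on the insulin arrays, against 12.48, 12.25 and 12.03 on the controls. The groups overlapped, with a change of 0.09 ± 0.11 (SE, adjusted p = 0.620). Of its 30 probe sets 25 were higher after insulin and 5 lower, and none passed limma's test. The sign of the gene's change turned without control 3 (-0.02) and with the brightest probe set alone (-0.15). The probe set with the highest change had 7.86, 7.85 and 7.69 after insulin, against 7.44, 7.58 and 7.32 in controls, without overlap, and did not pass (adjusted p = 0.102).

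**Figure D3:**
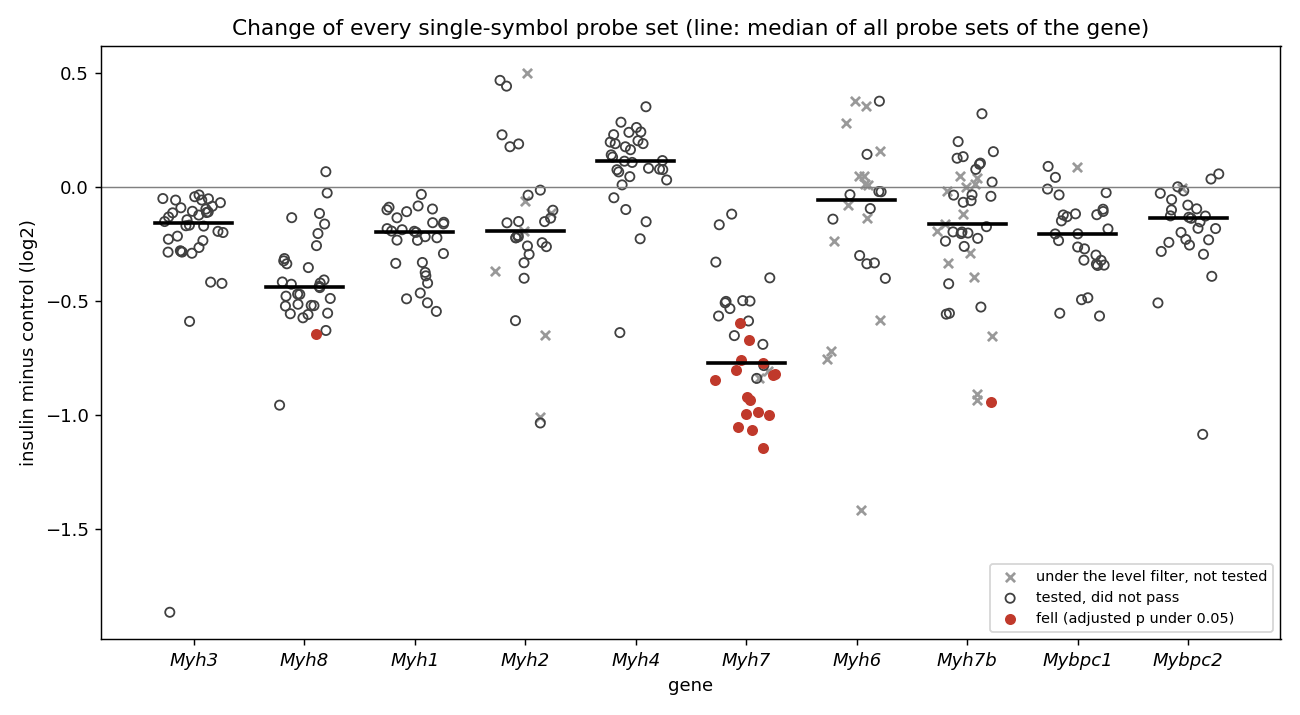
Insulin minus control (vertical axis, log2) for all 314 probe sets by gene, with a line at each gene's median; red points fell, open points did not pass and crosses were under the level filter. The 33 Myh7 probe sets all lie under 0, while 25 of 30 Myh4 probe sets lie above it.

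Myh2, Myh1, Myh4 and Myh8 stand next to each other on chromosome 11, after Myh3, with no other protein-coding gene between them in RefSeq. Their promoter windows share a run of 14 bases, given in capitals, which no other of the 32851 RefSeq windows holds on either strand. The run was picked as the longest one common to these windows, so its absence elsewhere is not a test of it. The windows are shown because these neighbours hold a common run while all 29 probe sets of Myh1 were lower after insulin and 25 of 30 of Myh4 higher. The shift of Myh1 minus Myh4 between groups was -0.34, with a Benjamini-Hochberg adjusted exact permutation p of 0.25. With 3 arrays per group no unadjusted p of this test can be under 0.1, so it cannot decide whether these genes differ.
Myh1 (chr11:67199852-67200151, plus strand): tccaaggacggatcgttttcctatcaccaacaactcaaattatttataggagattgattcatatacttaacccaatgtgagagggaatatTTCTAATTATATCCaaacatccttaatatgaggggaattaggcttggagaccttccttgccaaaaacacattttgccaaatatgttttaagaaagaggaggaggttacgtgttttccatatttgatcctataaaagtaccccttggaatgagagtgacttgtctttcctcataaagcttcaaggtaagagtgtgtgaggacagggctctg
Myh2 (chr11:67170777-67171076, plus strand): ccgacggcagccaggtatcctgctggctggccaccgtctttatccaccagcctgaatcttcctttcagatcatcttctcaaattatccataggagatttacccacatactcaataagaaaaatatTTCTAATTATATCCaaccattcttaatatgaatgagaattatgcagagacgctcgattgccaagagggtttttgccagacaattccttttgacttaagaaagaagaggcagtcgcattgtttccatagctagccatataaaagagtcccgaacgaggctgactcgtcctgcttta
Myh4 (chr11:67237562-67237861, plus strand): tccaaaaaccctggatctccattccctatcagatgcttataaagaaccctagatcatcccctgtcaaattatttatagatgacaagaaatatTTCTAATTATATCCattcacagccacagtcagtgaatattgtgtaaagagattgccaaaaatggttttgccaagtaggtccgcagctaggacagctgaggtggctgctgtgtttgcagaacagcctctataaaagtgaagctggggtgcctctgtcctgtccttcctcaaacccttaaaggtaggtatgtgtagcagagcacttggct
Myh8 (chr11:67276874-67277173, plus strand): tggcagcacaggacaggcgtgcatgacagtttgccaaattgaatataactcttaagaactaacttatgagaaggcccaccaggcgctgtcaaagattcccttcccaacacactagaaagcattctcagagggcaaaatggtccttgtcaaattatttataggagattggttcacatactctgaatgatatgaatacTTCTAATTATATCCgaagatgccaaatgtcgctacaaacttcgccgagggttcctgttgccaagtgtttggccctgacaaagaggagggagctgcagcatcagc
The first base of the run stands at -160 in Myh1, -125 in Myh2, -158 in Myh4 and -54 in Myh8, counted from the RefSeq start site. The window of Myh3 does not hold it, nor do those of the other 5 genes.

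Neither binding protein passed the test. Mybpc1, the slow form, had 10.15, 10.19 and 9.96 on the insulin arrays, against 10.41, 10.49 and 10.25 on the controls, with no overlap. Its change was -0.28 ± 0.09 (SE, adjusted p = 0.0744), and 26 of 29 probe sets were lower. It passed without control 3 (-0.35, adjusted p = 0.0385). Mybpc2, the fast form, had 9.66, 9.80 and 9.50 on the insulin arrays, against 9.96, 9.93 and 9.74 on the controls. Insulin 2 lay above control 3, and the change was -0.23 ± 0.10 (SE, adjusted p = 0.159), with 24 of 27 probe sets lower. The difference Mybpc1 minus Mybpc2 was 0.45 ± 0.05 on the insulin arrays and 0.51 ± 0.06 on the controls (SD, n = 3 each), a shift of -0.06 (two-sided exact permutation p = 0.3).

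**Figure D4:**
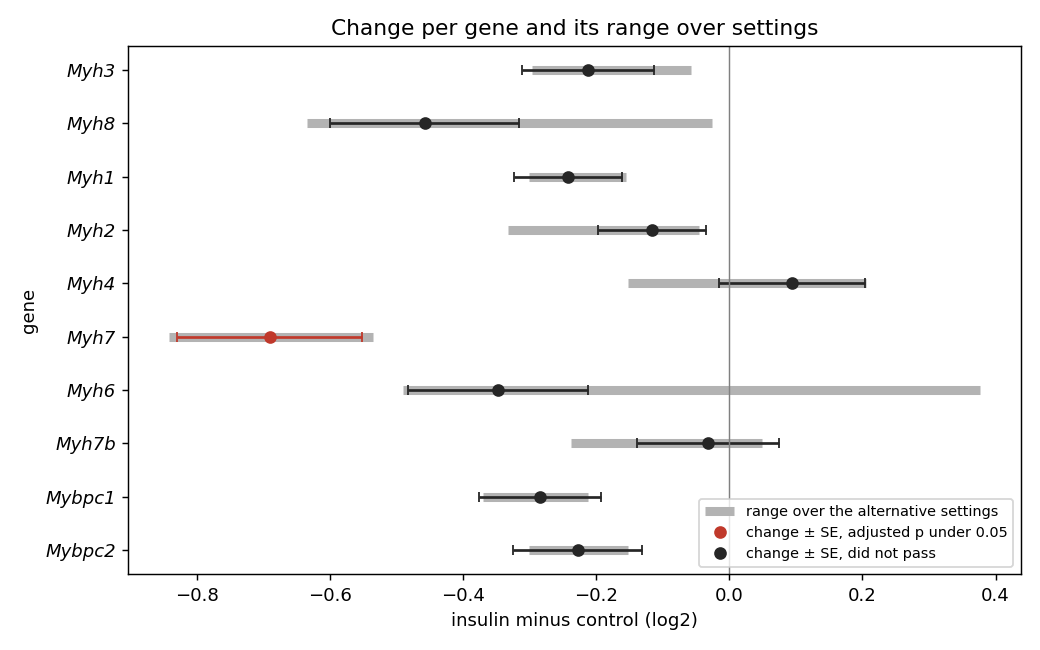
Insulin minus control per gene (horizontal axis, log2) with its SE, red for Myh7, which passed limma's test, and black for the rest; grey bars span the values under the alternative settings. The Myh7 bar runs from -0.84 to -0.53, and those of Myh4, Myh6 and Myh7b cross 0.

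To ask whether the slow chain moved further than the fast ones, the mean of Myh1, Myh2 and Myh4 was subtracted from Myh7 within each array. Only the shift of this difference between groups can be read. It was -1.97, -1.90 and -1.92 on the insulin arrays, against -1.10, -1.35 and -1.53 on the controls, without overlap. The shift was -0.60. Its two-sided exact permutation p was 0.1, and a design of 3 and 3 arrays cannot give a lower one. The same was done for all 45 pairs of the 10 genes, where the lowest p adjusted by Benjamini-Hochberg was 0.25. As no unadjusted p can be under 0.1, no pair could have passed the threshold used for limma. This test therefore cannot decide whether any pair differs. For Myh4 minus Myh7 the difference was 3.01 ± 0.07 after insulin and 2.23 ± 0.08 in controls (SD, n = 3 each), a shift of 0.78. For Myh1 minus Myh3 it was 0.01 ± 0.04 and 0.04 ± 0.08, a shift of -0.03 (exact permutation p = 0.7). For Myh7 minus Myh8 the shift was -0.23, with values that overlapped (exact permutation p = 0.2). Of the 9 pairs with Myh7, 8 did not overlap between groups. Of the 36 pairs without it 10 did not, Myh1 minus Myh4 and Myh4 minus Myh8 among them. The pairs with Myh7 all reuse the values of the called gene, and the share over pairs of other genes was not computed. These counts are therefore a description and no evidence that Myh7 stands apart. The probe sets of the genes compared differ in level, and in Myh1 and Myh4 the brightest changed less than the dimmest. Whether level affects the slow minus fast shift was not tested.

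Control 3 was the lowest control in 9 of the 10 genes (37.5% of all tested genes) and the control nearest the insulin mean in 7 of the 10 (40.2%). Control 1 exceeded control 3 by 0.61 in Myh7, 0.57 in Myh8 and 0.45 in Myh4, and by a median of 0.36 over the 10 genes, against -0.0067 over all tested genes. In Myh2 control 1 lay below control 3, by 0.08. Genes with 25 or more probe sets had a median of 0.06 for this gap. It was 0.45 in Myh9, 0.50 in Myh10 and 0.53 in Myh11, heavy chains of non-muscle and smooth muscle myosin, and 0.63 in Ttn (titin) and 1.29 in Neb (nebulin). The SD of the controls exceeded that of the insulin arrays in 8 of the 10 genes, as in 63% of all tested genes. The part of this spread in the results was not tested; the values without each control stand beside the genes above.

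The 5 genes outside the family whose values over the 6 arrays were most like the mean profile of the 10 were Bicd2, Ube2d1, Nav2, Arhgef17 and Ldlrad3, with Pearson r from 0.992 to 0.997 over 6 arrays that share the group difference. Nav2 had 10.35, 10.24 and 10.29 after insulin, against 10.97, 10.72 and 10.41 in controls, with control 3 again the lowest control. None of the 5 passed limma's test, with adjusted p from 0.0720 to 0.166.

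Partners of the heavy chains were read from lists, which were chosen with earlier results of these data known. The counts of each list stand against 6.35% falling and 9.56% rising over all tested genes. Of 8 myosin light chain and kinase genes 5 fell and 3 did not pass, with a median change of -0.30. Myl2, the slow and cardiac regulatory light chain that pairs with Myh7, had 10.08, 10.20 and 10.13 on the insulin arrays, against 11.04, 11.31 and 11.40 on the controls, a change of -1.12 ± 0.10 (SE, limma adjusted p = 6.61e-04). Here control 3 was the highest control, the reverse of Myh7. Myl6b, an essential light chain of slow muscle, changed by -0.49 ± 0.07 (adjusted p = 0.00337) and the fast essential chain Myl1 by -0.39 ± 0.06 (adjusted p = 0.00687).

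Of 13 measured thick filament and M-line partners 7 fell and 6 did not pass (median -0.43). Trim54 and Trim55, muscle RING-finger proteins of the sarcomere and microtubules, changed by -0.48 ± 0.06 and -0.43 ± 0.06 (SE), and Fhl1, a LIM protein, by -0.45 ± 0.06. Myom1 and Myom2, the M-band proteins that crosslink myosin, fell by 0.43 each, while Mybph, a small relative of the binding proteins, changed by -0.21 and Mybpc3, the cardiac binding protein, by -0.0073, neither passing.

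Of 8 genes in a list named for myosin folding and assembly 3 fell and 5 did not pass, with a median change of 0.13. Smyd1, a methyltransferase needed for myofibril assembly, changed by -0.41 ± 0.08 (SE, limma adjusted p = 0.0103). Unc45b, the muscle myosin chaperone, changed by -0.29 ± 0.07 (SE, limma adjusted p = 0.0250). Murc (Cavin4), which stands in the list without being a myosin chaperone, has 2 probe sets. It changed by -0.24 ± 0.06 (SE, limma adjusted p = 0.0353). The call of Murc was lost in 8 of 16 alternatives, among them the replicate block (adjusted p = 0.0589), no filter (0.0662) and the removal of any single array but control 3. That of Unc45b was lost in 5 of 16, with adjusted p up to 0.0964 without insulin 2, and that of Smyd1 with its brightest probe set alone (-0.18, adjusted p = 0.113). The 5 that did not pass are expressed in many tissues and had changes of 0.24 for Unc45a, 0.22 for Smyd2, 0.18 for Hsp90aa1, 0.16 for Ahsa1 and 0.09 for Hspa8. Among 6 further heavy chains 2 were under the level filter (Myh13 and Myh15) and 4 did not pass, with 0.31 ± 0.14 for Myh10 (adjusted p = 0.173), -0.13 ± 0.11 for Myh9 and -0.05 ± 0.13 for Myh11 (SE).

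Of 17 tested thin filament genes 7 fell and 10 did not pass (median -0.23). Tpm3, the slow tropomyosin, changed by -0.53 ± 0.06, Lmod2, an actin nucleator, by -0.43 ± 0.08 and Tnni1, the slow troponin I, by -0.39 ± 0.07 (SE). The call of Tnni1 did not hold without insulin 1 (adjusted p = 0.0502) or insulin 2 (0.0510), nor with its brightest probe set alone (-0.08, adjusted p = 0.430). Of 30 tested regulators of fibre type and myosin genes 9 fell, 2 rose and 19 did not pass (median -0.23). Myod1, the myogenic factor that favours fast fibres, changed by -0.57 ± 0.07 (adjusted p = 0.00247), Tead4, which binds MCAT elements, by -0.44 ± 0.08 and Tbx15, a factor of fast glycolytic fibres, by -0.40 ± 0.07 (SE). Vgll2, a TEAD cofactor, rose by 0.38, and Myf5 by 0.29.

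**Figure D5:**
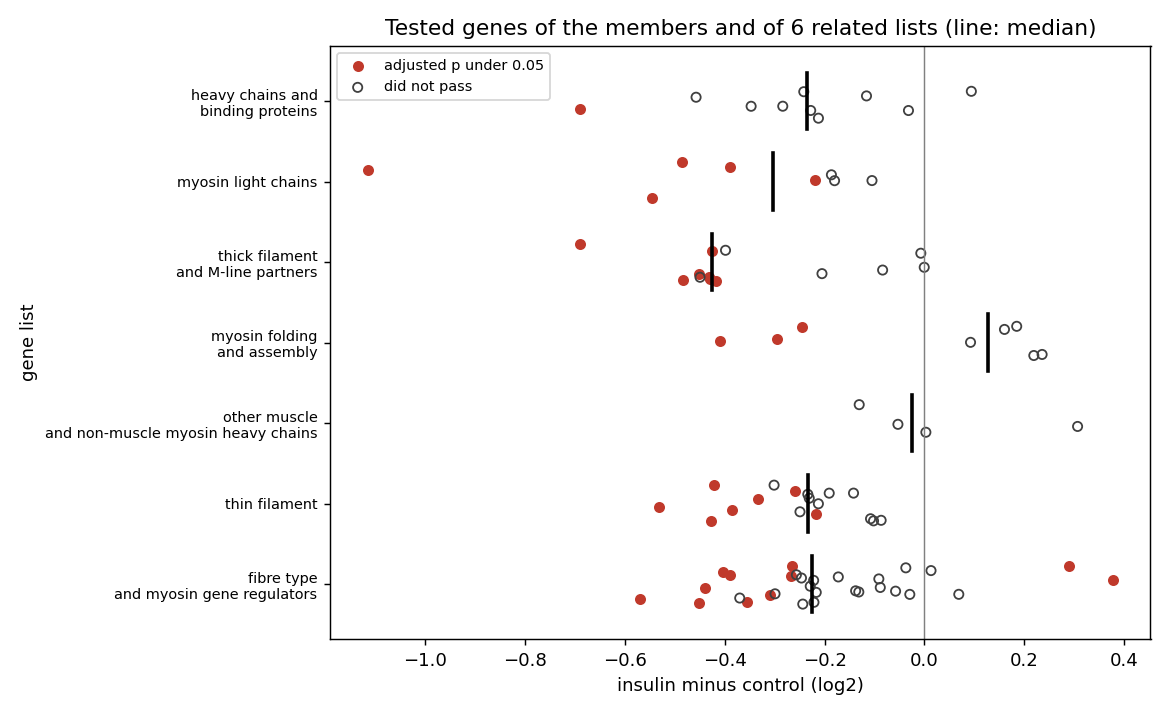
Insulin minus control (horizontal axis, log2) of the tested genes in the family and in 6 lists of related genes, with a line at each median; red points passed limma's test and open points did not. Genes of the folding and assembly list lie on both sides of 0, with the 3 called ones, Murc among them, below it.

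The myotube label was checked against markers, also chosen with earlier results of these data known. Over all tested genes 6.35% fell and 9.56% rose. All 9 myotube markers were above the level filter, 3 fell and 6 did not pass, and the log2 of their summed linear values ran from 16.25 to 16.27 on the insulin arrays, against 16.45 to 16.50 on the controls. All 6 measured markers of cycling cells rose, with summed values of 14.31 to 14.38 after insulin and 13.80 to 13.90 in controls. Of 7 tested myoblast and satellite cell markers 3 rose and 4 did not pass, with sums of 14.09 to 14.16 after insulin and 14.05 to 14.12 in controls. Cd34 rose by 0.55, Met by 0.51 and Myf5 by 0.29. Changes of those that did not pass were 0.21 for Vcam1, -0.03 for Pax7, -0.06 for Itga7 and -0.21 for Sdc4. A sum of linear values follows its largest value most, here Itga7 (mean 13.09), so it can hide the genes that rose. The part of these shifts in the myosin results was not tested, and in whole cultures fewer myotubes and less RNA per myotube cannot be told apart. Macrophage and endothelial markers had 3 of 4 genes each under the level filter, and 3 of 6 adipocyte markers were under it. Of the tested fibroblast markers 1 of 6 fell (sums 13.45 to 13.51 after insulin, 13.60 to 13.77 in controls), of smooth muscle markers 2 of 5 fell, and of cardiomyocyte markers 1 of 6 rose, while the 3 neuronal markers did not pass.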

How the data were processed

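The deposited table gives 241576 probe sets as log2 values made with RMA, per the submitters' processing notes. The log base is not stated; a range of 3.15 to 14.55 led to its reading as base 2. Array medians lay between 8.79 and 8.82. Per the labels, 25 ng of total RNA per array was amplified before labelling. No scans, scan dates or detection calls were used, so detection above background is unknown. Precision is limited by having 3 arrays per group. As RMA equalizes arrays, each change is relative to the other transcripts.

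Gene symbols came from the platform table at GEO, which can be old, with 4475 of several symbols and 25004 of none left out of gene values. A gene's value was the median of its single-symbol probe sets. Genes and, separately, probe sets with a mean under the 30th percentile (7.05 and 7.36) were left out, and limma 3.58.1 (lmFit, eBayes, two-sided, R 4.3.3) was fitted without covariates, with Benjamini-Hochberg adjustment over all features at 0.05. The steps were run on simulated data with 200 changed genes, drawn independently for each gene and array. These hold no effect shared by the genes of an array, so they do not show how the steps perform here. Differences between 2 genes used exact permutation over arrays. Sequences are from RefSeq (GRCm38.p6), where all 10 genes matched by symbol.

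The 10 genes, the 6 related lists and the markers were chosen with earlier results of these data known. From each list the 3 genes with the smallest unadjusted p were named, together with the 5 genes most like the family's mean profile and, per family gene, the probe sets with the lowest and highest change, of which some are described; further genes were chosen after their values were seen. Alternatives tried were a block for replicate number, a second quantile normalization, median centring, other filters, limma's trend and robust options, weights for array quality, other summaries of a gene's probe sets, and each array left out.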

Additional observations from a re-analysis of the deposited data

How the results depend on the processing

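The fall of Myh7 kept its direction in all 17 alternatives (-0.84 to -0.53) and passed limma's test in 13; it did not with the brightest probe set (-0.57, adjusted p = 0.0668) or without any one insulin array. The number of the 10 genes that fell was 3 with the replicate block (Myh7, Myh8, Mybpc1) and 3 with the filter at the 50th percentile. That filter left Myh6 and Myh7b untested. The number was 3 with a trend and robust prior, 3 with the mean of probe sets and 7 with array quality weights. It was 2 with the shared Myh6 and Myh7 probe sets added and 0 with the brightest probe set. It ran from 0 to 5 when single arrays were left out, and none rose in any setting by limma. Member probe sets that fell, 18 in all, numbered 2 with the replicate block, 6 without a filter, 34 with the trend and 78 with array weights, and 0 to 30 without single arrays; over all probe sets 2431 fell, and 155, 708, 5105 and 13857 did in those 4 settings. Over all genes 2274 were called in either direction in the main fit. The number was 1970 with the block, 1676 without a filter, 2497 with the filter at the 50th percentile and 2695 with the trend. It was 5007 with array weights, 3436 with the mean of probe sets and 1532 with the brightest probe set. Without single arrays it ran from 1045 to 2449. In the alternatives, falling genes were not counted separately over all genes. The number of genes tested also differs between filters, so no share stands beside the member counts. Controls and insulin arrays of the same number correlated at 0.02, 0.19 and -0.0004 in their deviations. Those of unlike number correlated at -0.10 to 0.07. These values do not settle whether the numbers pair the cultures. The slow minus fast shift ran from -0.70 to -0.35, with an exact permutation p of 0.25 under the replicate block and 0.1 elsewhere. Each of these is the lowest p its design can give, so they show neither stability nor weakening. The filters, the trend and array weights do not enter the shift. Signs turned in 5 genes, none of them called. Myh4 gave -0.15 with the brightest probe set and ran from -0.018 to 0.206 when single arrays were left out, Myh7b from -0.128 to 0.0499 (0.0403 without insulin 2) and Myh11 from -0.217 to 0.0499 (0.00811 without control 2). With the brightest probe set Myh6 gave 0.377, Myh9 0.0890 and Myh11 0.0520, and Myh11 gave 0.0940 with brighter probe sets. Of the 18 list genes named by rule, 8 lost their call in at least 1 setting: Murc in 8, Unc45b in 5, Tnni1 in 3, and Trim54, Smyd1, Myod1, Tead4 and Tbx15 in 1 each, without insulin 2 for Tbx15 (adjusted p = 0.0510) and with the brightest probe set for the others.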
